A study of Homo sapiens with 2 samples.

Results

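The genes described here are MPP4, MARCHF4, TMEM158, LAT2, ESAM, AQP3 and ENPP4, 7 of the 20289 genes measured in the breast cancer line MDA-MB-231, which is of human origin, established in culture and triple-negative (without hormone receptors or HER2 amplification). They encode proteins of the cell surface, of membrane scaffolds or of internal membranes, and they were taken by symbol because earlier results of these libraries showed large rises. The count ratio of the pair of libraries therefore chose them, and it is given below as a description with no test. All 7 symbols were found, and all 7 passed the floor of 50 counts on average over both libraries that 11530 genes passed. MPP4 (35 counts) and LAT2 (48 counts) were under 50 in the control library and passed only through the other library.

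The study asked what changes in gene expression when USP30-AS1, a long non-coding RNA transcribed antisense to the mitochondrial deubiquitinase gene USP30, is targeted by siRNA. One group is MDA-MB-231 cells given an siRNA against USP30-AS1 (1 library, 19569214 counts) and the other is MDA-MB-231 cells given a negative control siRNA (1 library, 23287817 counts). Both were sequenced as poly(A) RNA. The siRNA dose, the time after transfection and the number of cultures behind each library are not given in the sources used here. USP30-AS1 was not analysed here, so the depth of the knockdown is not shown. Each group has 1 library, hence no replicates and no test between groups, and every interval below is a 95% counting interval, which leaves out the spread between cultures. A higher value in a bulk library can mean more RNA per cell or more cells that make it, and these cannot be told apart.

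The 7 genes are known from different tissues. MPP4 is a membrane-associated guanylate kinase (MAGUK), a scaffold that gathers membrane proteins at photoreceptor synapses. ESAM is an immunoglobulin-superfamily adhesion molecule of endothelial tight junctions and platelets. LAT2 is a transmembrane adaptor of B cells, mast cells and myeloid cells that is phosphorylated after antigen or Fc receptor engagement and then binds GRB2. AQP3 is an aquaglyceroporin, a channel that passes water and glycerol, and is abundant in the basolateral membrane of collecting duct, in skin and in other epithelia. ENPP4 is an ectoenzyme that hydrolyses dinucleoside polyphosphates at the surface of vascular endothelium and favours platelet aggregation. MARCHF4 is a RING-type ubiquitin ligase of the Golgi that lowers the surface level of proteins such as MHC class I. TMEM158 was described as a gene raised in RAS-induced senescence of fibroblasts and is also expressed in brain.

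Promoter sequence from RefSeq (build GRCh38.p14) was at hand for 4 of the 7 genes, and is shown because the 4 differ widely in base composition. Each stretch is the 250 bases before the RefSeq start, on the minus strand, 5′ to 3′. Capitals mark the GC box GGGCGG and the TATA box TATAAA, searched on both strands. The regions are chr2:201698645-201698894 for MPP4, chr2:216372484-216372733 for MARCHF4, chr3:45226288-45226537 for TMEM158 and chr9:33447594-33447843 for AQP3.
MPP4: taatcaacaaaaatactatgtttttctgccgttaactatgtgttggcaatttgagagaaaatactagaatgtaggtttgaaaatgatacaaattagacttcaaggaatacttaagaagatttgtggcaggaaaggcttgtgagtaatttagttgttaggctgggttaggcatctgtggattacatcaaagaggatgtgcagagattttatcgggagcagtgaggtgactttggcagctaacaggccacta
MARCHF4: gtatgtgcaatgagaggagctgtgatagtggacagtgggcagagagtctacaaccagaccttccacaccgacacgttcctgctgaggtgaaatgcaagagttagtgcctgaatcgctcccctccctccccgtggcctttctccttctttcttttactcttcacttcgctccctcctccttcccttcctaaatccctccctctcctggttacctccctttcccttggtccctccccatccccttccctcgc
TMEM158: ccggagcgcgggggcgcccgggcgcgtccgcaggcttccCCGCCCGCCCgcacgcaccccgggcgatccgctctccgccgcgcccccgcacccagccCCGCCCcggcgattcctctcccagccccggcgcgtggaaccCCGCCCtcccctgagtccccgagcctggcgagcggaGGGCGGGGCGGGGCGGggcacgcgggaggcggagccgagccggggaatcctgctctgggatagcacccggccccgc
AQP3: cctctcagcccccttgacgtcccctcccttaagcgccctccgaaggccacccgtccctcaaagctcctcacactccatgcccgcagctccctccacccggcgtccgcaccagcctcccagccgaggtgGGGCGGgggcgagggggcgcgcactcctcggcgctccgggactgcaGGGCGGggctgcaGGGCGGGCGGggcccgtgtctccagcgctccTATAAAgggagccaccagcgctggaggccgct

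These promoters differed in composition. Over 300 bases (250 before and 50 after the start), GC content was 38.0% in MPP4, 55.0% in MARCHF4, 82.7% in TMEM158 and 75.3% in AQP3, against a median of 58.7% over 35116 promoters. The observed over expected frequency of CpG was 0.205 in MPP4 and 0.325 in MARCHF4, and 0.901 in TMEM158 and 0.757 in AQP3, where the median promoter had 0.579. A GC box occurred in TMEM158 (8 matches over the 300 bases, some overlapping) and AQP3 (5 matches), and 45% of all promoters hold one. AQP3 also had the TATA box, which 11.5% of promoters hold. None of the 4 windows held the CCAAT box (34.6% of promoters), the AP-1 letters TGANTCA (7.71%) or the E-box CACGTG (7.26%). These matches are letters in a window and say nothing of factors bound there.

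All 7 genes were higher in the knockdown library. Together they had 149.7 CPM (counts relative to library size, with TMM scaling) there and 44.5 CPM in the control library. Every gene was at least 2-fold higher by the log2 ratio of CPM with 0.5 added, as were 1.55% of the 11530 compared genes. The share that was lower by as much was 1.6%. Since the members were chosen on this ratio, their count of 7 of 7 carries no weight against that background. Their median log2 ratio was 1.94, while the median of all compared genes was -0.0036.

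**Figure D1:**
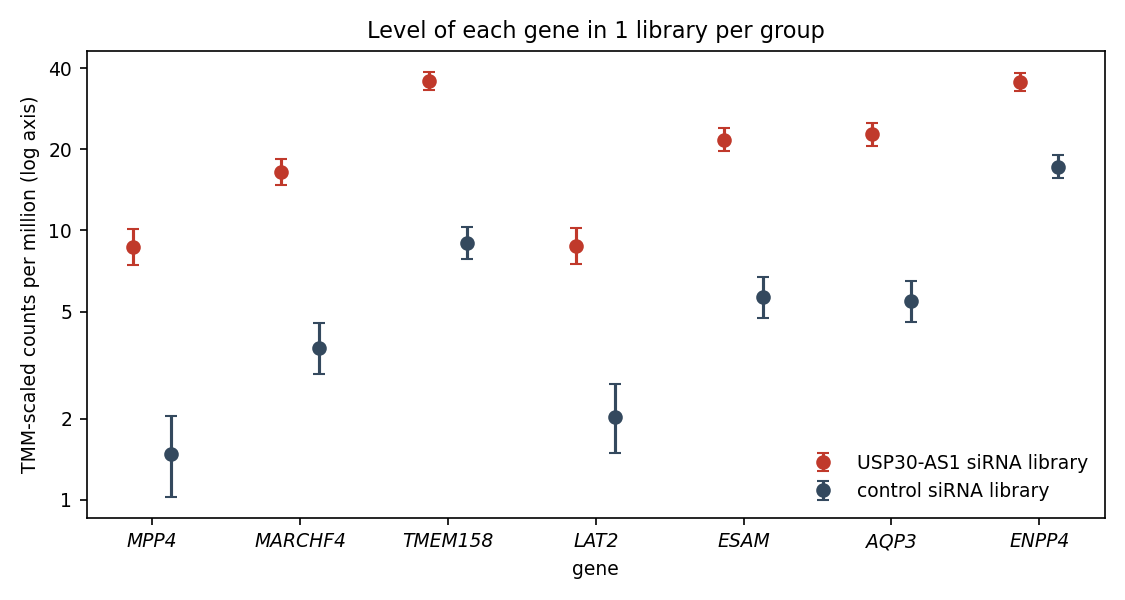
TMM-scaled CPM of the 7 genes (log axis) in the USP30-AS1 siRNA library (red, left) and the control siRNA library (blue, right), with 1 library each. Bars are 95% exact Poisson counting intervals. The genes were chosen for the difference shown, and on this axis ENPP4 has the smallest gap between the libraries.

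Among the scaffold and adhesion genes, MPP4 (ENSG00000082126, chr2:201644870-201698694, minus strand, GRCh38) had 167 counts in the knockdown library, against 35 in the control library. Its scaled level was 8.68 CPM (7.41 to 10.1) in the knockdown and 1.48 CPM (1.03 to 2.06) in the control library, 5.87-fold higher (4.06 to 8.72). With only 35 control counts, this is the widest interval of the 7, upper over lower bound. The snRNA gene RNU6-651P overlaps MPP4 on the opposite strand. MPP4 stood at rank 6 of the 11530 compared genes by log2 ratio, the highest place of the group.

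ESAM (ENSG00000149564, chr11:124752583-124762290, minus strand) had 418 counts in the knockdown library and 134 in the control library, or 21.7 CPM (19.7 to 23.9) and 5.66 CPM (4.74 to 6.70). Its fold of 3.84 (3.15 to 4.70) is known more closely than that of MPP4, because it rests on more counts. An antisense transcript, AP000866.2, overlaps ESAM in GENCODE release 29. It was not analysed here. No source used here says whether the counting used strand, so reads of the pair cannot be told apart.

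LAT2, the immune adaptor (ENSG00000086730, chr7:74199652-74229834, plus strand), had 169 counts in the knockdown library and 48 in the control library. That is 8.78 CPM (7.51 to 10.2) and 2.03 CPM (1.49 to 2.69), 4.33-fold higher (3.13 to 6.10). AQP3, the water and glycerol channel (ENSG00000165272, chr9:33441154-33447633, minus strand), had 437 counts in the knockdown library and 130 in the control library. Its level was 22.7 CPM (20.6 to 24.9) in the knockdown and 5.49 CPM (4.59 to 6.52) in the control library, 4.14-fold higher (3.39 to 5.07). AQP3 and ESAM had similar counts in both libraries, and their fold intervals overlapped over most of their width.

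MARCHF4, the ubiquitin ligase (ENSG00000144583, named MARCH4 in GENCODE release 29, chr2:216257865-216372027, minus strand), had 317 counts in the knockdown library and 87 in the control library. Its level was 16.5 CPM (14.7 to 18.4) in the knockdown and 3.67 CPM (2.94 to 4.53) in the control library, 4.49-fold higher (3.53 to 5.75). The opposite-strand genes AC012513.1, AC069155.1 and RF00019 overlap MARCHF4 and were not analysed here, so the limit given for ESAM holds here too. TMEM158 (ENSG00000249992, chr3:45224466-45226278, minus strand) had 691 counts in the knockdown library and 213 in the control library. It reached 35.9 CPM (33.3 to 38.7) in the knockdown and 8.99 CPM (7.83 to 10.3) in the control library, a difference of 26.9 CPM and the largest gain in level of the 7. Its fold was 3.99 (3.42 to 4.68).

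ENPP4, the ectoenzyme (ENSG00000001561, chr6:46129993-46146699, plus strand), stood apart from the other six. It had 682 counts in the knockdown library and 408 in the control library, or 35.4 CPM (32.8 to 38.2) and 17.2 CPM (15.6 to 19.0). The fold of 2.06 (1.82 to 2.33) has an interval that ends below the lower bound of each of the others, and it includes 2. By log2 ratio ENPP4 (1.02) stood at rank 166 of 11530, just inside the genes past 2-fold, while the other six stood between ranks 6 and 17. With library totals in place of TMM its log2 ratio was 0.97, with deposited FPKM 0.99 and with a pseudocount of 2 CPM 0.96, all short of 2-fold. Its gain in level, 18.2 CPM, was above that of AQP3 (17.2 CPM) and ESAM (16.1 CPM).

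**Figure D2:**
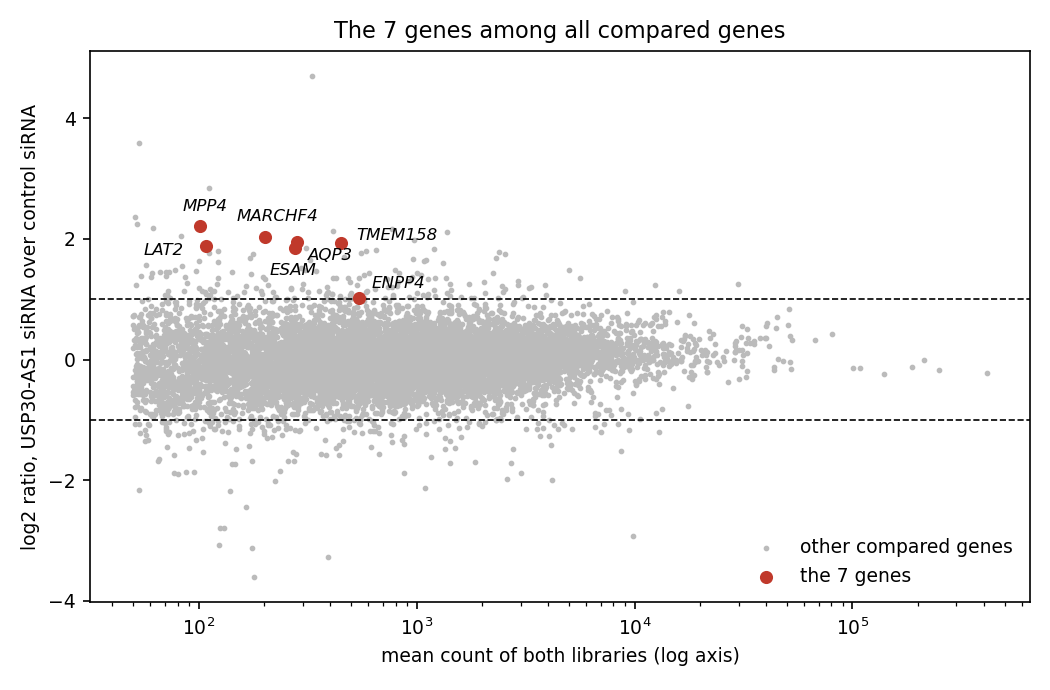
Log2 ratio of the USP30-AS1 siRNA library over the control siRNA library against the mean count (log axis) for 11530 compared genes, with the 7 genes in red and 2-fold lines dashed. 6 of them lie between 1.85 and 2.21, and ENPP4 lies on the upper 2-fold line at 1.02.

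Genes with the nearest log2 ratios were of mixed kinds. The rule took the 2 genes closest to each member in log2 ratio over the 2 libraries, among named genes averaging 100 counts or more and leaving out the 7 genes themselves. Nearest to MPP4 were PRPS2, an enzyme of nucleotide precursor synthesis (log2 ratio 2.17), and the forkhead factor FOXQ1 (2.13). The methyl-CpG reader MBD2 (1.99) lay close to MARCHF4, TMEM158 and AQP3. The purine salvage enzyme HPRT1 (2.11) was the other gene nearest to MARCHF4. IGFBP3, a carrier of insulin-like growth factors (1.85), was among the nearest to TMEM158, LAT2, ESAM and AQP3, and SHCBP1 (1.83) to LAT2 and ESAM. For ENPP4 they were the focal adhesion protein LPXN and the tRNA-modifying enzyme TYW3 (both 1.02). With 1 value per group, such likeness is only a shared ratio.

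Levels per length put TMEM158 at the top and MPP4 and MARCHF4 at the bottom of the control library. In deposited FPKM (fragments relative to transcript length and library size), TMEM158 had 19.4 in the knockdown and 5.02 in the control library, the highest of the 7 in each. ESAM had 13.6 and AQP3 12.3 FPKM in the knockdown library, and 3.43 and 3.06 in the control library. ENPP4 had 7.5 FPKM in the knockdown and 3.77 in the control library. MPP4 had 4.79 FPKM in the knockdown and 0.65 in the control library, LAT2 4.49 and 1.38, and MARCHF4 3.30 and 0.76. The order of levels was not the same in the libraries, since ENPP4 stood below ESAM and AQP3 in the knockdown library but above both in the control library, and MPP4 was lowest in the control library only.

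Several neighbours in that order had overlapping counting intervals. In the knockdown library the intervals of ESAM (12.3 to 14.9 FPKM) and AQP3 (11.2 to 13.5) overlapped, as did those of MPP4 (4.09 to 5.57) and LAT2 (3.84 to 5.22). In the control library the intervals of ENPP4 (3.41 to 4.15), ESAM (2.87 to 4.06) and AQP3 (2.56 to 3.63) overlapped, as did those of MARCHF4 (0.609 to 0.937) and MPP4 (0.453 to 0.904). Overlap alone does not show that such values cannot be ordered. Among genes with an FPKM above 0, the 7 lay between percentiles 33.8 (MARCHF4) and 69.6 (TMEM158) in the knockdown library. In the control library they lay between percentiles 20.9 (MPP4) and 40.1 (TMEM158). None was listed at 0 in either library.

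**Figure D3:**
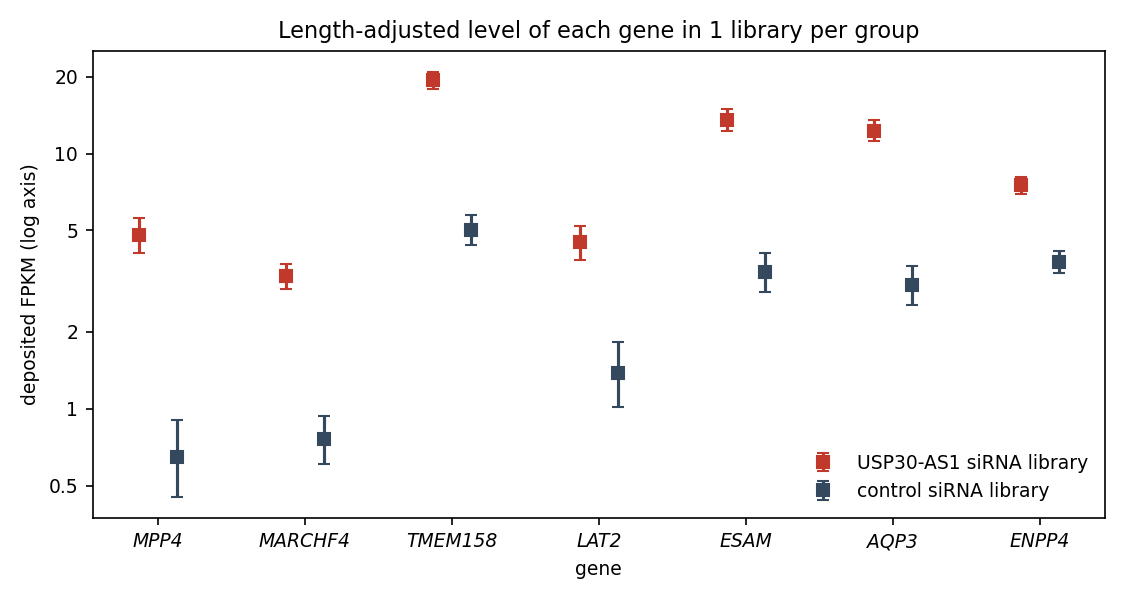
Deposited FPKM of the 7 genes (log axis) in the USP30-AS1 siRNA library (red, left) and the control siRNA library (blue, right). Bars carry over the 95% Poisson interval of the count; MPP4 and MARCHF4 are the lowest in the control library at 0.65 and 0.76 FPKM, and TMEM158 is the highest in both at 19.4 and 5.02 FPKM.

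FPKM and counts gave nearly the same fold for the genes with 1 annotated transcript and different folds for some with several. The transcript length implied by a count and its FPKM is made from the values that chose the members and is given as a description. It was 1822 bases in both libraries for TMEM158 (1 transcript) and 4647 in both for ENPP4 (1 transcript). For MARCHF4 it was 4909 in the knockdown and 4916 in the control library. Both exceed the 4447 bases of the 1 MARCHF4 transcript in GENCODE release 29. The annotation behind the deposited values is not given and may differ from that release. For AQP3 the implied length was 1816 bases in the knockdown and 1824 in the control library. MPP4, with 12 annotated transcripts of 540 to 2462 bases, had an implied length of 1782 bases in the knockdown and 2312 in the control library. Its FPKM fold was 7.37, above the count fold of 5.87. LAT2, with 11 transcripts of 561 to 2527 bases, went the other way, with 1923 bases in the knockdown and 1494 in the control library, and an FPKM fold of 3.25 beside a count fold of 4.33. ESAM had 1575 bases in the knockdown and 1678 in the control library.

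The shifts of MPP4 and LAT2 lay near the ends of the range at these depths. Among 4068 genes with mean counts of 50 to 500, the middle 95% had a length ratio of 0.752 to 1.29, relative to the median gene. MPP4 (0.771) lay inside that range and LAT2 (1.288) just above its upper end (1.287). No transcript-level values were analysed here, so which transcripts differed is not shown.

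Of 45 relatives listed for 6 of the genes, 22 could be compared. None of the 22 was past 2-fold higher and 2 were past 2-fold lower, with log2 ratios from -1.87 to 0.74 and a median of 0.12. Over all compared genes 1.55% were higher and 1.6% lower by as much, so a count of 0 higher among 22 is near the background, as is a count of 0 in the lists of similar size below. TMEM158 had no relative on the list. Whether relatives share reads with the members was not tested.

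For MPP4 all 7 related MAGUK genes were compared. PALS1, the scaffold of the Crumbs polarity complex, had a log2 ratio of 0.48, MPP1, an erythroid and leukocyte scaffold, 0.47, MPP7 0.46 and MPP3 0.34. CASK, a synaptic MAGUK kinase homologue, lay at -0.19 and PALS2 at -0.28. MPP2 lay lowest at -0.80, with 336 counts in the knockdown and 728 in the control library, 1.76-fold lower (1.54 to 2.01). In the wider list of scaffolds and polarity partners 8 of 13 compared genes lay above 0, none past 2-fold in either direction, and the median was 0.02, or -0.03 with library totals and -0.02 with deposited FPKM. The LIN7 proteins bind MAGUK scaffolds through a shared domain, and LIN7C, the one that passed the floor, lay at 0.02. The polarity genes CRB1, CRB2 and CRB3 had at most 2 counts in either library.

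For MARCHF4, 8 of 10 other MARCHF ligases were compared. They lay between -0.41 (MARCHF2, an endosomal ligase) and 0.41 (MARCHF9, a Golgi ligase that also acts on MHC class I), with a median of -0.09. MARCHF10 and MARCHF11 had 0 counts in both libraries. Surface proteins on which ligases of this family have been reported to act were set beside it. HLA-B and HLA-C, which encode heavy chains of MHC class I, had log2 ratios of 0.05 and -0.03, both near level. ALCAM, an adhesion molecule, lay at 0.60, the transferrin receptor TFRC at 0.71, ICAM1 at 0.18 and the tetraspanins CD151 and CD81 at 0.17 and -0.03. CD44, the hyaluronan receptor, had 7554 counts in the knockdown and 3647 in the control library, 2.55-fold higher (2.45 to 2.65), and was the one member of the 9 compared past 2-fold. Among all compared genes 1.55% were past 2-fold higher. The median of the 9 genes was 0.18. RNA levels do not show surface protein, which is what the ligase acts on.

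For LAT2, several partners that carry antigen receptor signals had few or no counts. LAT, its closest relative in T cells, had 8 counts in the knockdown and 10 in the control library. The kinase SYK and the adaptors LAX1 and SIT1 had 0 counts in both libraries. The more widely expressed partners were present and close to level: GRB2, the adaptor that LAT2 binds, at 0.20, the kinases LYN and FYN both at 0.11, the ubiquitin ligase CBL at -0.22 and the transmembrane adaptor PAG1 at 0.13. PLCG1 and PLCG2, phospholipases of this pathway, lay at 0.51 and -0.53. Of 10 compared genes 7 lay above 0 and none passed 2-fold (median 0.08, or -0.0025 with deposited FPKM).

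For ESAM, the other junction adhesion molecules that passed the floor lay above 0. CXADR, the coxsackievirus and adenovirus receptor, had 477 counts in the knockdown and 346 in the control library, 1.70-fold higher (1.47 to 1.95). F11R, which encodes JAM-A, lay at 0.39 and CLMP at 0.21. MAGI1, a junction scaffold that ESAM binds, was 1.65-fold higher (1.57 to 1.75). MAGI2 was 1.76-fold lower (1.24 to 2.53) and the endothelial and platelet adhesion molecule PECAM1 1.43-fold lower (1.15 to 1.80). In this list 9 of 12 compared genes lay above 0 and none passed 2-fold (median 0.19), where 49.6% of all compared genes lay above 0.

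For AQP3, the only other aquaporin past the floor went the opposite way. AQP1, a water channel of red cells, endothelium and kidney tubule, had 26 counts in the knockdown and 148 in the control library, 4.62-fold lower (3.03 to 7.31). AQP11, an intracellular aquaporin, had 25 counts in the knockdown and 47 in the control library and lay under the floor. AQP7, the other glycerol channel detected, had 3 counts in the knockdown and 1 in the control library, and 6 of the 11 relatives of AQP3 had 0 counts in both. In FPKM, AQP3 had 12.3 in the knockdown library, where AQP1 had 0.56. In the control library AQP3 had 3.06 FPKM and AQP1 2.36. GK, the kinase that takes up glycerol into metabolism, lay at 0.09 and the mitochondrial glycerol phosphate dehydrogenase GPD2 at -0.17.

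For ENPP4, its relatives also differed in direction. ENPP2, which encodes autotaxin, the secreted enzyme that makes lysophosphatidic acid, had 409 counts in the knockdown and 1341 in the control library, 2.66-fold lower (2.38 to 2.98). ENPP1, which makes pyrophosphate from extracellular ATP, was 1.28-fold higher (1.20 to 1.37). ENPP5 lies beside ENPP4 in the genome and had 26 counts in the knockdown and 55 in the control library, under the floor and 1.72-fold lower (1.06 to 2.86). Among genes of extracellular nucleotides, P2RY2, a receptor for ATP and UTP, was 2.12-fold higher (1.74 to 2.58) and NT5E, the ecto-nucleotidase CD73 that makes adenosine, 1.54-fold higher (1.5 to 1.57). ENTPD1 (CD39) lay at -0.04 and the ATP-release channel PANX1 at -0.01. Of 7 compared genes in this list 1 was past 2-fold in each direction and the median was -0.01, or 0.0018 with DESeq2 size factors. Over all compared genes 1.55% were past 2-fold higher and 1.6% past 2-fold lower.

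**Figure D4:**
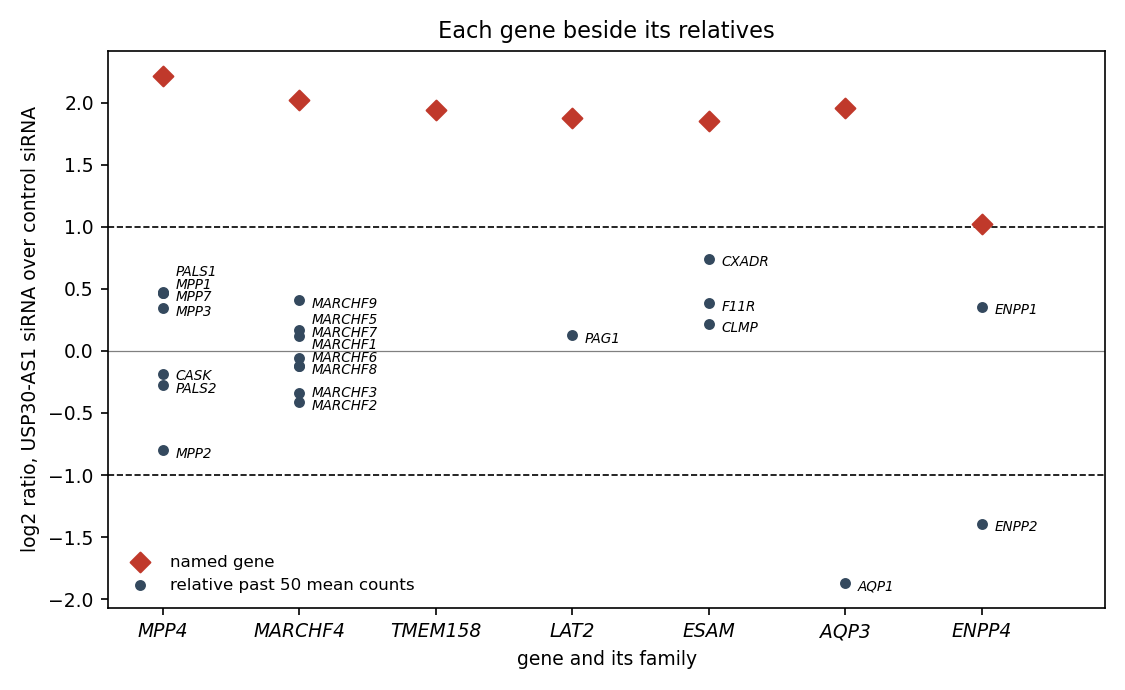
Log2 ratio of the USP30-AS1 siRNA library over the control siRNA library for the 7 genes (red diamonds) and those relatives that passed 50 mean counts (blue points), with 2-fold lines dashed. No relative reaches the upper line, and AQP1 (-1.87) and ENPP2 (-1.39) lie below the lower one.

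For TMEM158, genes of the RAS pathway, which is known to raise it, were listed. Of 19 genes, all compared, 13 lay above 0 (median 0.09), where 49.6% of all compared genes did. None was past 2-fold, which at 1.55% of all genes is near the background. HRAS lay at 0.03 and NRAS at 0.66. The feedback phosphatase DUSP6, an often used readout of ERK activity, lay at 0.64, whereas the feedback inhibitors SPRY2 and SPRY4 lay at -0.60 and -0.56 and MAPK3 at -0.70. The transcription factors ETV4 and ETV5, other targets of ERK, lay at 0.09 and 0.00. Among genes of senescence, IGFBP3 was 3.80-fold higher (3.16 to 4.59). The cell cycle inhibitor CDKN1A was 1.80-fold higher (1.57 to 2.06), and CDKN2A and CDKN2B had 0 counts in both libraries. LMNB1, a lamin that falls in senescent cells, lay at 0.57. Of 12 compared genes 2 were past 2-fold higher, IGFBP3 among them, 7 lay above 0 and 5 below, and the median was 0.55.

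Markers of the cell types in which the genes are known differed in level. Of 12 photoreceptor markers 8 had 0 counts in both libraries, among them CRX, which encodes a photoreceptor transcription factor, and the list summed to 3.01 CPM in the knockdown and 2.96 CPM in the control library. Of 14 markers of B cells, myeloid cells and mast cells, 11 had 0 counts in the knockdown and 6 in the control library, and the list summed to 3.79 CPM in the knockdown and 3.80 CPM in the control library. MS4A1, a B cell marker, was at 0 in both. The knockdown sum came from the myeloid markers CD14 (42 counts in the knockdown and 40 in the control library) and CSF1R (21 and 26) and the mast cell marker KIT (10 and 13). The limit that 0 counts leave is 0.156 CPM in the knockdown library and 0.127 CPM in the control library, from 3 counts. The level of LAT2, 8.78 CPM in the knockdown library, was above the whole sum of the blood cell list there. In the control library LAT2 had 2.03 CPM, below the list sum of 3.80 CPM.

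Endothelial and platelet markers, which bear on ESAM and ENPP4, were mixed. The list summed to 32.1 CPM in the knockdown and 28 CPM in the control library, mostly from EGFL7 (22.8 and 17.9 CPM), a gene also made by tumour cells. ROBO4, an endothelial guidance receptor, was 2.05-fold higher (1.5 to 2.81), although its log2 ratio of 0.92 fell short of 2-fold with 0.5 CPM added. VE-cadherin (CDH5), the defining junction protein of endothelium, had 8 counts in the knockdown and 91 in the control library, 9.24-fold lower (4.50 to 22.1). Its mean lay just under the floor, and it was singled out after its values were seen. VWF had 0 counts in the knockdown library and 1 in the control library, and CLDN5 the same.

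Epithelial markers were mixed. Of 14 listed, 6 were compared and lay above 0, and 2 of these passed 2-fold (KRT19 and CLDN4), with a summed level over the list of 1753 CPM in the knockdown and 1029 CPM in the control library. Over all compared genes 49.6% lay above 0 and 1.55% were at least 2-fold higher. The simple keratins KRT8, KRT18 and KRT19 were 1.73-fold (1.69 to 1.77), 1.60-fold (1.56 to 1.64) and 3.16-fold (2.88 to 3.48) higher, and the tight junction gene CLDN4 2.08-fold (1.89 to 2.29). E-cadherin (CDH1) had 0 counts in the knockdown and 5 in the control library, and the basal keratins KRT5 and KRT14 had at most 4 counts in either. ESRP1, an epithelial splicing factor, had 5 counts in the knockdown and 59 in the control library, 9.59-fold lower (3.88 to 30.6). TP63, a factor of basal epithelium, had 4 counts in the knockdown and 27 in the control library, 5.48-fold lower (1.91 to 21.6). Both lay under the floor, and with no floor the median of the list was 0.27 in place of 0.74. The part of these markers in the AQP3 result was not tested. Collecting duct markers summed to 6.91 CPM in the knockdown and 11.4 CPM in the control library, with the vasopressin receptor AVPR2 at 3 counts in the knockdown and 16 in the control library. Neuronal markers summed to 64.4 CPM in the knockdown and 39.9 CPM in the control library, chiefly from the tubulin TUBB3 (970 and 630 counts), and STMN2 and SNAP25 were at 0 in both. Of 4 neuronal markers compared, 3 lay above 0 (TUBB3, SYT1 and GAD1), and the median was 0.38. MAP2, a dendritic protein gene, had 40 counts in the knockdown and 91 in the control library, 1.85-fold lower (1.26 to 2.75). The synaptic vesicle gene SYP, under the floor, had 0 and 11.

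By the gene ontology terms in the deposited table, 6 of the 7 genes are integral to a membrane and MPP4 is not. Of 2606 compared genes with that term, 53 (2.03%) were past 2-fold higher and 63 (2.42%) past 2-fold lower. Of 2339 annotated to the plasma membrane, 63 (2.69%) were higher and 61 (2.61%) lower. All these shares lie above those over all 11530 compared genes, 1.55% higher and 1.6% lower, in both directions. The higher shares count the members themselves, 6 with the first term and 4 with the second, which were chosen for a rise.

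Around the 7 genes, most neighbours were level. The nearest 2 compared genes on each side of each gene, a set added after values were seen, gave 28 genes at 1.3 to 752 kb. Of these 24 had a log2 ratio within 0.5 of 0, and the median was 0.06. TMEM237, at 1.3 kb from MPP4, lay at 0.28. EIF4H and RFC2, at 2.55 and 1.67 kb from LAT2, lay at 0.22 and 0.22. NRGN and MSANTD2, at 5.37 and 4.21 kb from ESAM, lay at 0.46 and 0.20.

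3 of the 28 were at least 2-fold higher, beside the 1.55% of all compared genes. CDK15 (36 counts) and PRSS3 (31 counts) were under the floor in the control library and passed it only through the knockdown library. The floor therefore helped to place both among the 28, and the count of 3 is given as a description only. CDCP1, a transmembrane glycoprotein phosphorylated by SRC kinases, is the nearest compared gene to TMEM158 at 78.0 kb. It had 876 counts in the knockdown and 300 in the control library, 3.59-fold higher (3.15 to 4.11), close to the 3.99-fold of TMEM158. CDK15, a cyclin-dependent kinase 91.8 kb from MPP4, had 97 counts in the knockdown and 36 in the control library, 3.32-fold higher (2.24 to 5.01). PRSS3, a trypsin gene 303 kb from AQP3, had 72 counts in the knockdown and 31 in the control library, 2.86-fold higher (1.85 to 4.51), but other trypsin genes are close in sequence, and whether they share its reads was not tested. RUNX2, 466 kb from ENPP4, had 353 counts in the knockdown and 823 in the control library and a log2 ratio of -0.90.

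**Figure D5:**
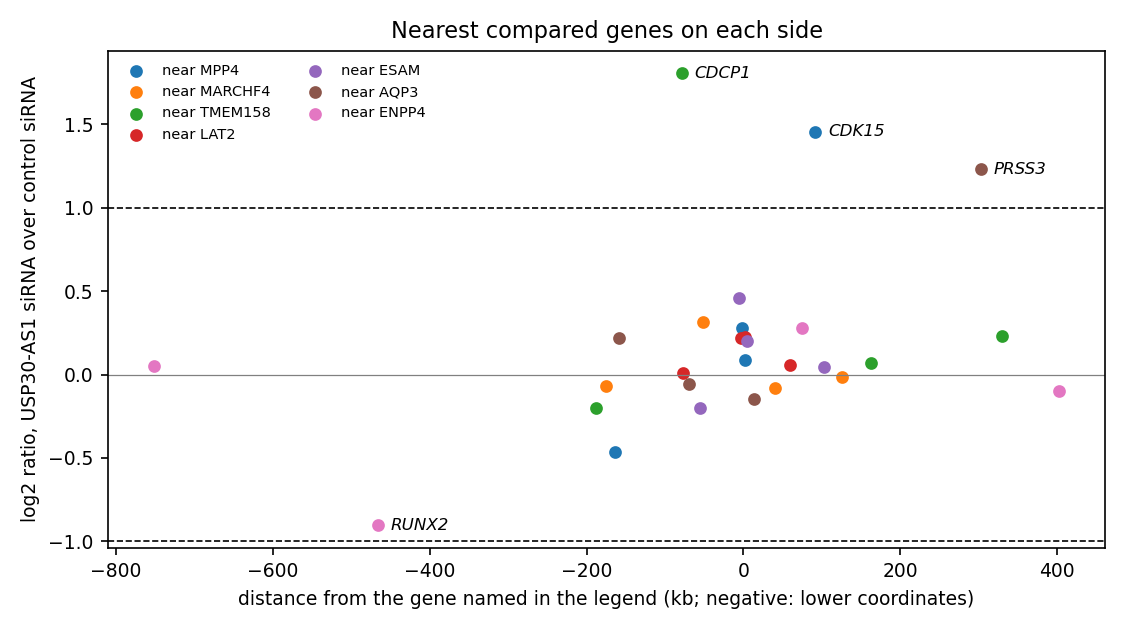
Log2 ratio of the USP30-AS1 siRNA library over the control siRNA library for the 2 nearest compared genes on each side of each of the 7 genes, against distance in kb, with 2-fold lines dashed. CDCP1, CDK15 and PRSS3 lie above the upper line at 1.81, 1.46 and 1.23, and RUNX2 at -0.90 is the lowest.

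The 3′ ends of the mRNAs gave a last feature. Earlier work on these libraries had found words of 7 bases in 3′ untranslated regions that were frequent among genes that were lower (AACTCCA or ACTCCAA) or higher (CCTAAGA or CTAAGAA). These words were picked on these same data. In GENCODE release 29, the words of the lower genes occurred in 71 of 180 lower genes (39.4%), 24 of 175 higher genes (13.7%) and 19.0% of 11406 compared genes. The words of the higher genes occurred in 81 of 175 higher genes (46.3%), 13 of 180 lower genes (7.22%) and 19.0% of all. Of the 7 genes, ENPP4 alone held a word of the higher genes, and LAT2 alone a word of the lower genes. MPP4, MARCHF4, TMEM158, ESAM and AQP3, with annotated 3′ untranslated regions of 340 to 1447 bases, held neither. For each gene, only the protein-coding transcript with the longest 3′ untranslated region was searched, among those tagged basic in GENCODE. Which transcripts these cells express was not analysed. The sites are shown 5′ to 3′ on the mRNA strand from GENCODE transcripts, with the word in capitals.
LAT2: gggtctcccAACTCCActgcatcct
ENPP4: atcacaaaaCTAAGAAtacatccaa

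The site in LAT2 starts at base 83 of a 3′ untranslated region of 1584 bases, and the site in ENPP4 at base 45 of 3059. LAT2, which was 4.33-fold higher, holds the word that was commoner among lower genes. ENPP4, which holds the word commoner among higher genes, had the smallest fold of the 7. Words and members were both chosen on these data, so neither pairing tests the words.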

How the data were processed

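The deposited table holds estimated counts per gene for 1 library of each group, in columns headed count, which were taken as not yet normalized. It also holds columns headed fpkm, which were taken as FPKM, a unit relative to length and depth. Tools named in the submitters' processing notes are HISAT2, RSEM, fastp 0.18.0 and StringTie 1.3.1, with the build GRCh38 and no roles. The annotation release, the strand setting and the filters are not given in the sources used here. Of the deposited counts, 11.4% in the knockdown and 12.0% in the control library were not whole, and all were rounded. The log2 fold changes and p-values in the authors' deposited table rest on an unstated method and were not used. Its columns Si-179 were taken as the knockdown library, since the file's title pairs Si-NC with Si-USP30-AS1 and the other columns carry the control's name.

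Counts were scaled by library total and TMM factor (0.983 for the knockdown and 1.017 for the control library, edgeR 4.0.16, R 4.3.3). Folds use scaled CPM with exact Clopper-Pearson 95% intervals, levels carry exact Poisson intervals, and log2 ratios are knockdown over control with 0.5 CPM added. Genes with a mean of at least 50 counts were compared, and 2-fold means a log2 ratio of at least 1 in size. The intervals cover counting error only. PCR copies are not independent molecules.

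The members, the 15 gene lists (219 distinct genes) and the words were chosen with earlier results of these data known. Named genes are the members, their relatives, list genes past 2-fold (up to 4 per list), and the 2 nearest by ratio. Further genes were named for their role or low counts, after values were seen. Some genes that the rule takes are not reported here. Positions and transcripts are from GENCODE release 29 (GRCh38, 20171 of 20289 identifiers matched), promoters from RefSeq. The steps were tested on simulated data. Alternatives were DESeq2 1.42.0 size factors, library totals, deposited FPKM with 0.01 added, pseudocounts of 0.1 and 2 CPM, no floor and a floor of 200 counts. Python 3.11.15 was used.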

Additional observations from a re-analysis of the deposited data

How the results depend on the processing

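All 7 genes kept a log2 ratio above 0 under each of the 5 alternatives run for them. MPP4 ranged from 1.62 to 2.86, MARCHF4 from 1.70 to 2.14, TMEM158 from 1.79 to 1.99, LAT2 from 1.42 to 2.06, ESAM from 1.63 to 1.98, AQP3 from 1.72 to 2.03 and ENPP4 from 0.96 to 1.04. ENPP4 was the one gene to drop below 2-fold. A pseudocount of 2 CPM took 5 genes outside their counting intervals, to 1.62 (MPP4), 1.70 (MARCHF4), 1.42 (LAT2), 1.63 (ESAM) and 1.72 (AQP3), since by construction it pulls low genes toward 0. It left 118 genes at least 2-fold lower, and a floor of 200 counts left 111, instead of 185. With library totals 151 genes were at least 2-fold higher and 216 lower, and with deposited FPKM 191 and 273. With no floor the median of endothelial and platelet markers was 0.082 instead of 0.63, and that of epithelial markers 0.27 instead of 0.74, as more genes enter. No paired analysis was possible because each group has 1 library, and none could be left out. MPP4 and LAT2 have the fewest counts, and depth limits them most.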
